A study of Bos grunniens and Bos grunniens x Bos taurus with 2 samples.

Results

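AIF1 is 1 gene of the 26961 genes counted in testicular cells of a yak (Bos grunniens) and of a cattle-yak (Bos grunniens x Bos taurus), and it was chosen by its symbol, which the annotation gives to a single feature, ENSBGRG00000013397. It was chosen with its level in these cells known, so its levels are a description, and no test was made of them. Both animals were past sexual maturity, each gave 1 library from testis tissue that had been frozen, and no treatment was given in the labels. The labels give both libraries the cell type "Germ cell", but clusters led by germ cell markers held 1844 of the 11991 yak cells and 333 of the 8930 cattle-yak cells. With 1 library from each animal there were no replicates, cells of 1 animal are not replicates, and animal, library and genotype cannot be told apart. All intervals are 95% intervals of counting error only.

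AIF1, also called Iba1, is a small calcium-binding protein that binds and bundles actin filaments. It is best known as a marker of macrophages and microglia, where it takes part in membrane ruffling and in phagocytosis. The testis holds resident macrophages in its interstitium, outside the tubules in which spermatogonia (SPG), among them the stem cells (SSC), give rise to spermatocytes (SPC) and then to haploid spermatids (SPT). AIF1 is also known to be transcribed in the testis of some mammals.

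The yak library held 60816600 UMIs (unique molecular identifiers, each standing for 1 captured transcript), with a median of 2533 per cell, and the cattle-yak library held 43774841, with a median of 3155. AIF1 had 6969 UMIs in the yak, which was 115 CPM (counts per 1000000 UMIs), and 462 UMIs in the cattle-yak, which was 10.6 CPM. At least 1 AIF1 UMI was found in 842 yak cells (7.02%) and in 106 cattle-yak cells (1.19%). A total of 24 barcodes occurred in both libraries, and these held 1 AIF1 UMI in the yak and 0 in the cattle-yak.

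Most AIF1 transcripts of the yak were in germ cells, and most of those of the cattle-yak were in macrophages. In the yak, germ-like clusters held 5709 UMIs (81.9% of all AIF1 UMIs) and the macrophage-like cluster 888 (12.7%). In the cattle-yak, the macrophage-like cluster held 419 UMIs (90.7%), and germ-like clusters held 1 (0.216%). AIF1, C1QA and CSF1R had been left out of the genes used for clustering.

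Among the 1127 yak cells that the authors typed as germ cells, AIF1 was high in SPT, lower in late-SPC and low or undetected in SSC, SPG and early-SPC. The 84 SSC held 3 AIF1 UMIs, at 19.6 CPM (4.04 to 57.3), and the 486 SPG held 8, at 12.9 CPM (5.58 to 25.5). The 72 early-SPC held 0, which with 3 counts as the limit allows up to 10.5 CPM. The 261 late-SPC held 36, at 75.6 CPM (52.9 to 105), and the 224 SPT held 241, at 887 CPM (779 to 1007). The intervals of SSC, SPG and early-SPC overlapped, that of late-SPC overlapped only that of SSC, and that of SPT overlapped none of the others.

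The share of cells with an AIF1 UMI was likewise highest in SPT, also at matched depth. It was 42.4% in SPT (95 cells), 9.20% in late-SPC (24 cells), 1.65% in SPG (8 cells) and 3.57% in SSC (3 cells), with median depths of 906, 1168, 979.5 and 1605 UMIs. After every cell was thinned to 1000 UMIs, it was 46.9% of the 98 SPT that were deep enough (36.8 to 57.3). Of the 126 left out, 118 were in a cluster whose SPT had less AIF1 (cluster 13, below). The thinned share was 5.49% of 164 late-SPC, 2.11% of 237 SPG, 1.30% of 77 SSC and 0 of 49 early-SPC, which allows up to 6.12%. In T/NK-like cells, lymphocytes in which AIF1 should be low, the share was 2.68% at a median of 1932 UMIs, and 1.21% after thinning. The intervals of the shares in SSC and SPG held these values, both before and after thinning, so no expression above that of T/NK-like cells was detectable in them at this depth.

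**Figure D1:**
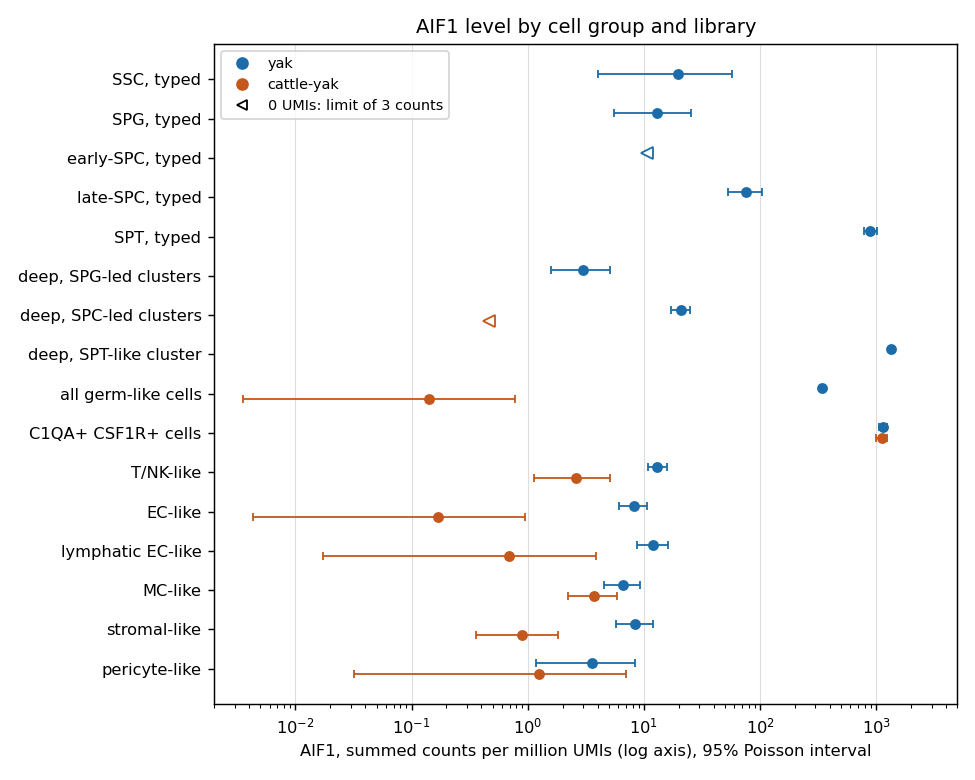
AIF1 level in CPM of summed counts (log axis) by cell group, for the yak (blue) and the cattle-yak (orange), with bars for the 95% Poisson interval and open triangles for the limit that 3 counts give where no UMI was counted. Typed SPT (887 CPM), the deep cells of the SPT-like cluster (1343 CPM) and the C1QA- and CSF1R-positive cells of both libraries (1148 and 1111 CPM) stand at the right, and all cattle-yak germ-like cells together (0.141 CPM) at the left. The deep cattle-yak germ-like cells are drawn in the row of SPC-led clusters, and their stage was not tested.

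AIF1 was 28.9-fold higher in typed SPT than in the other typed germ cells together, 887 against 30.7 CPM (21.1- to 40.4-fold). With 1 CPM added on each side this is a log2 ratio of 4.81, which placed AIF1 78th of 5250 genes with at least 50 UMIs in these cells. A log2 ratio of at least 2 was reached by 443 of these genes, or 8.44%. The median of all 5250 genes was -0.42. Without the late-SPC among the other types the log2 ratio was 6.28.

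The late-SPC were not uniform in AIF1. The authors' own clustering splits them into a group of 196 cells with 34 AIF1 UMIs, at 115 CPM (79.4 to 160), and a group of 65 cells with 2, at 11.1 CPM (1.35 to 40.2). When all cells of the library were clustered, the 194 late-SPC that fell in cluster 13 together with 164 typed SPT had 102 CPM (68.0 to 148), and the 58 in another cluster had 12.03 CPM (1.46 to 43.5). The late-SPC nearer to the spermatids thus held nearly all AIF1 UMIs of this type.

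The typed SPT were not uniform either. Of the 224 cells, 129 had no AIF1 UMI, 43 had 1, 39 had 2 to 4 and 13 had 5 or more, with 16 as the highest count. The 164 SPT in cluster 13 had 482 CPM (376 to 608), and the 57 in cluster 14 had 1508 CPM (1290 to 1752). Cluster 14 is called SPT-like here, from the spermatid markers that led it. The transcripts of the 17 spermatid markers of the list that are in the annotation, among them those of acrosome and sperm head proteins, came to 4879 CPM in the SPT of cluster 13 and to 13251 CPM in those of cluster 14. Of these 2 groups of typed SPT, the one with more spermatid transcripts thus had more AIF1.

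AIF1 was also higher at 1 end of the authors' ordering of the typed SPT. The first diffusion component, which the authors computed from the expression of these cells, was used to cut the 224 SPT into 4 groups of 56. AIF1 was at 241 CPM (135 to 398) in the group with the lowest values, then at 406 (248 to 627) and 694 (496 to 946), and at 1617 (1381 to 1883) in the group with the highest values. Spermatid list transcripts had the same order, from 2431 to 13212 CPM. Median depth was 822, 789, 885 and 1566.5 UMIs in these groups, so the last group was also the deepest. The component is not read here as a stage order, since late-SPC lie among the SPT on it. Its median was 0.0426 in AIF1-positive and 0.0160 in AIF1-negative late-SPC, against 0.0230 and 0.00689 in SPT.

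Much of the yak's AIF1 lay in spermatid-like cells that the authors' typing does not hold. Cluster 14 had 222 cells, 5415 AIF1 UMIs (77.7% of the library's) and 1360 CPM (1324 to 1396), and 208 of its cells (93.7%) had an AIF1 UMI. Only 57 of these cells were typed, all as SPT. The other 165 cells held 5245 AIF1 UMIs, at 1355 CPM (1319 to 1393). Thinned to 1000 UMIs, 70.2% of the cluster's cells kept an AIF1 UMI.

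Deep cells are those above the mean plus 2 standard deviations of UMIs or genes of their library (21212 UMIs or 3637 genes in the yak). The study states limits of this form, but those used here were computed on all deposited cells. They may not be the limits it applied, and 71 cells of the SPT-like cluster were neither deep nor typed. The SPT-like cluster held 94 deep cells, with 13677 to 111091 UMIs and 4635 AIF1 UMIs (66.5% of the library's). Every one of the 94 had AIF1, from 5 to 182 UMIs in a cell with a median of 44. Their level was 1343 CPM (1305 to 1382), against 1469 CPM (1368 to 1576) in the 128 cells of the cluster that were not deep, a log2 ratio of -0.13 (-0.24 to -0.02). The AIF1 level of the deep cells was thus 0.914 times that of the shallower ones, a gap beyond counting error but small beside those between cell kinds.

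**Figure D2:**
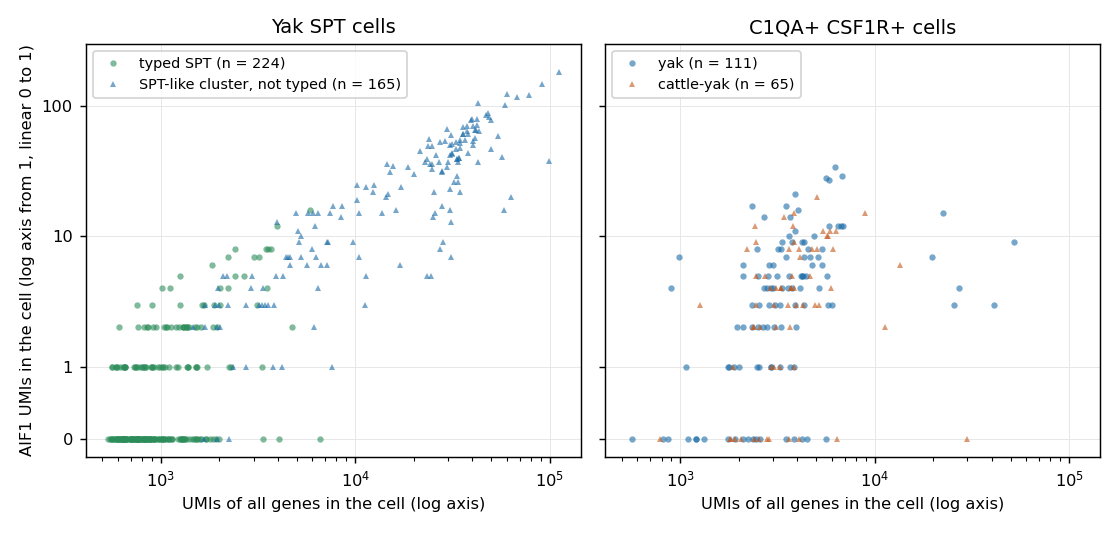
AIF1 UMIs (log axis above 1, linear from 0 to 1) against all UMIs of the cell (log axis), 1 point per cell, for typed SPT and the other cells of the SPT-like cluster in the yak (left) and for C1QA- and CSF1R-positive cells of both libraries (right). The 224 typed SPT end at 16 AIF1 UMIs in a cell, whereas the 165 other cells of the cluster go up to 182, and the gated cells end at 34 in the yak and at 20 in the cattle-yak.

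Within the deep spermatid-like cells, AIF1 was lower in the cells lowest in spermatid markers. The 94 cells were ordered by TNP1, which encodes a transition protein that replaces histones, and cut into groups of 32, 31 and 31. AIF1 was at 747 CPM (697 to 799) in the group lowest in TNP1, at 1716 (1642 to 1792) in the middle and at 1546 (1475 to 1620) in the highest. Ordered by HMGB4, a chromatin protein of the male germline, the levels were 741, 1710 and 1547 CPM. Ordered by ACRV1, an acrosomal vesicle protein, they were 812, 1573 and 1617 CPM. In all 3 orders the lowest group stood apart from the other 2, while which of the other 2 was higher differed between TNP1 or HMGB4 and ACRV1.

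**Figure D3:**
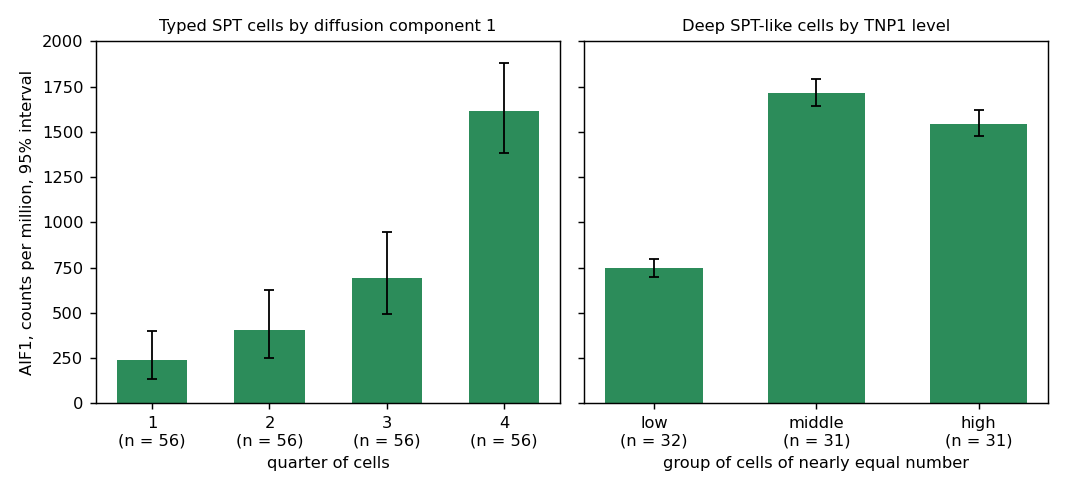
AIF1 level in CPM with 95% Poisson intervals, in 4 groups of 56 typed SPT from the lowest to the highest first diffusion component (left) and in the 94 deep cells of the SPT-like cluster from the lowest to the highest TNP1 (right). AIF1 goes from 241 to 1617 CPM on the left, and on the right from 747 CPM to 1716 and 1546 CPM.

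Deep germ cells of earlier stages had little AIF1. The 188 deep cells of clusters led by SPG markers held 13 AIF1 UMIs, at 2.99 CPM (1.59 to 5.10), and the 132 of clusters led by SPC markers held 116, at 20.7 CPM (17.1 to 24.8). Of the latter, 97 UMIs were in the 72 deep cells of a single cluster, at 26.6 CPM (21.6 to 32.5). All 414 deep germ-like cells together had 4764 UMIs, at 355 CPM (345 to 366), so that this value rests on the SPT-like cluster. The 378 deep yak cells outside the germ-like clusters, among them cells counted below as macrophages, had 8.04 CPM (6.33 to 10.1). Yak cells of neither germ nor macrophage kind had 3.91 CPM (2.62 to 5.61) from 16000 to 32000 UMIs. Above 32000 UMIs they had 4.05 CPM (1.85 to 7.70).

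Cells with at least 1 UMI of both C1QA, a chain of complement C1q, and CSF1R, the receptor for the macrophage growth factor CSF1, were taken as macrophages. The yak had 111 such cells, with a median of 3314 UMIs, and they held 625 AIF1 UMIs, at 1148 CPM (1060.0 to 1242). The cattle-yak had 65, with a median of 3636 UMIs, and they held 313 AIF1 UMIs, at 1111 CPM (992 to 1242). An AIF1 UMI was present in 82.9% of the yak cells and 80% of the cattle-yak cells, and in 62.3% of 106 and 57.8% of 64 after thinning to 1000 UMIs. The level and the share of cells were thus close in the gated cells of the 2 libraries, and the log2 ratio of cattle-yak to yak was -0.05 (-0.25 to 0.15). This closeness depended on the gate. In the macrophage-like clusters the level was 854 CPM in the cattle-yak and 1061 CPM in the yak. There the log2 ratio was -0.31 (-0.48 to -0.14), an interval that lies below 0.

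Counts per cell were also alike in these macrophages. In the yak, 19 of the 111 cells had 0 AIF1 UMIs, 12 had 1, 31 had 2 to 4 and 49 had 5 or more, with a median of 4 and a highest count of 34. In the cattle-yak, 13 of the 65 had 0, 5 had 1, 22 had 2 to 4 and 25 had 5 or more, with a median of 4 and a highest count of 20. The 10 cells with most AIF1 held 34.9% of the UMIs of the yak cells and 41.9% of those of the cattle-yak cells.

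Against all other cells of the same library, AIF1 stood out far more in the cattle-yak macrophages than in those of the yak, and it was the other cells that differed. The other cells had 105 CPM in the yak and 3.43 CPM in the cattle-yak. With 1 CPM added on each side, the log2 ratio was 3.43 in the yak. There AIF1 was 104th of 14427 genes, of which 332 (2.30%) reached a log2 ratio of 2. In the cattle-yak the log2 ratio was 7.97, and AIF1 was 6th of 12752 genes, of which 415 (3.25%) reached 2. With nothing added, AIF1 was 10.9-fold higher in the yak macrophages and 324-fold higher in those of the cattle-yak. Without germ-like cells among the other cells, the log2 ratio was 6.20 in the yak and 7.78 in the cattle-yak, with 1 CPM added.

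The gate did not hold all AIF1-bearing cells of the macrophage-like cluster, and it held some cells outside that cluster. Gated cells inside the cluster had 1668 CPM (103 cells) in the yak and 1276 CPM (61 cells) in the cattle-yak, and ungated cells of it had 627 CPM (135 cells) and 473 CPM (55 cells). The ungated cells lack a UMI of C1QA or of CSF1R, so the gate in part sets their low count of C1QA, C1QB and C1QC together. This count was 82 beside 306 of AIF1 in the yak, and 73 beside 122 in the cattle-yak. For every 100 AIF1 UMIs, the ungated cells had 85.0 UMIs of the macrophage marker list without C1QA and CSF1R in the yak. The cattle-yak ones had 64.8. Gated cells had 253 in the yak and 380 in the cattle-yak. Whether the ungated cells are macrophages was not tested. In the yak, 8 gated cells lay in other clusters, with a median depth of 23972 UMIs and 220 CPM of AIF1. The cattle-yak had 4 such cells, with 327 CPM. Yak cells with C1QA alone had 187 AIF1 UMIs, of which 160 were in germ-like clusters and 147 in 1 cell, and the 115 outside germ-like clusters had 49.2 CPM. Yak cells with CSF1R alone had 589, of which 397 were in germ-like clusters, and the 191 outside them had 127 CPM. In the cattle-yak, cells with C1QA alone had 79.7 CPM and cells with CSF1R alone 65.8 CPM.

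Typed SPT had a somewhat lower AIF1 level than the macrophages of the same library, 887 against 1148 CPM, a log2 ratio of -0.37 (-0.59 to -0.16). Which of the 2 was higher depended on the cells taken. With the SPT of cluster 14 only it was 0.39, with cells positive for either gate gene as macrophages it was 1.29, and with the gated cells of the macrophage-like cluster it was -0.91. The order of AIF1 levels in the yak was the SPT-like cluster, the gated macrophages, all typed SPT and then, far below, late-SPC, and the intervals of neighbours in this order did not overlap, although 57 cells are in both SPT groups. With only the gated cells of the macrophage-like cluster, macrophages stood first, at 1668 CPM (1535 to 1809) against 1360 CPM (1324 to 1396).

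The AIF1 of typed SPT came with few UMIs of the other macrophage genes that could be counted. The macrophage list has 21 genes, of which 12 are in the annotation. The 224 typed SPT held 10 UMIs of these 12 genes against 241 of AIF1. C1QA had 1 UMI, CSF1R 2, CD14 4, SPI1 1 and CYBB 2, and the other 7, with C1QB, C1QC, CD68, CD163 and MSR1 among them, were at 0. The gate genes C1QA and CSF1R are in the list and are fixed to be present in the gated cells, so they were left out of the ratio. For every 100 AIF1 UMIs there were then 2.90 UMIs of the list (1.16 to 6.08) in typed SPT, against 253 (231 to 278) in the gated yak cells and 198 (182 to 214) in the macrophage-like cluster of the yak.

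The same held, apart from CD14, in the deep spermatid-like cells, where AIF1 counts were far larger. Beside their 4635 AIF1 UMIs, the 94 cells had 1 UMI each of C1QA, C1QB and C1QC and 9 of CSF1R. Of the 223 UMIs of the list, 194 were of CD14, and without CD14 29 were left. CD14 was in 82 of the 94 cells, at 56.2 CPM (48.6 to 64.7), against 7.35 CPM (2.00 to 18.8) in the gated yak cells. No cell of these 94 and no typed germ cell had both C1QA and CSF1R. The yak macrophages held 1347 UMIs of C1QA, 747 of C1QB, 465 of C1QC and 506 of CSF1R beside their 625 of AIF1.

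Macrophage transcripts were rare in SPT both with and without AIF1. C1QA or CSF1R was found in 1 of the 95 AIF1-positive SPT (1.05%, exact binomial interval 0.0266 to 5.73) and in 2 of the 129 AIF1-negative ones (1.55%, 0.188 to 5.49). Spermatid list transcripts were at 10968 CPM in the positive cells and 5104 CPM in the negative ones, whose median depths were 1198 and 818 UMIs. When SPT with any macrophage list UMI were left out, the log2 ratio of SPT to the other types was 4.78, against 4.81 with them. Late-SPC differed, with 38 list UMIs, 24 of them of CD14, beside 36 of AIF1. A list UMI was in 8 of their 24 AIF1-positive cells (33.3%, 15.6 to 55.3) and in 17 of the 237 AIF1-negative ones (7.17%, 4.23 to 11.2). Without CD14 these were 3 and 4 cells. Median depths were 1792 and 1144 UMIs, and the source of the AIF1 in late-SPC was not tested.

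Low AIF1 counts were spread over all other yak cell classes. The 9901 yak cells that were in neither a germ-like nor the macrophage-like cluster and did not pass the gate held 329 AIF1 UMIs, at 7.65 CPM (6.85 to 8.53). The 8478 such cells of the cattle-yak held 26, at 0.719 CPM (0.470 to 1.05). T/NK-like cells had 13.1 CPM in the yak and 2.61 in the cattle-yak, endothelial (EC-like) cells 8.16 and 0.170, and stromal-like cells 8.46 and 0.886. The yak level was above that of the cattle-yak in each of these 3 classes.

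In the yak, the ratio of AIF1 to the spermatid list in these cells was close to that in the spermatids themselves. For every 100 spermatid list UMIs there were 11.4 of AIF1 (10.1 to 12.8) in the 9901 cells, 10.8 (9.46 to 12.4) in typed SPT and 10.4 (10.1 to 10.7) in the SPT-like cluster. Within the deep cells of that cluster the ratio was not constant. From the group lowest in TNP1, itself a list gene, to the highest, AIF1 was at 747, 1716 and 1546 CPM. The list was at 3961, 14689 and 20006 CPM in these groups. In single classes it was 11.3 in T/NK-like, 14.02 in EC-like, 11.1 in peritubular myoid (MC-like) and 11.9 in stromal-like cells, and it was farthest from the spermatids in lymphatic EC-like cells, at 14.8 (10.5 to 20.4), and pericyte-like cells, at 7.46 (2.35 to 18.3). In the yak macrophages it was 1202. The part of free RNA in these UMIs was not tested.

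In the cattle-yak, these classes held few AIF1 UMIs, and the source of these UMIs was not tested. The 8478 cells had 14.4 AIF1 UMIs for every 100 of the spermatid list (9.14 to 21.7), and 15.5 for every 100 UMIs of C1QA, C1QB and C1QC together (9.82 to 23.5). The ratio to C1q was 17.5 (15.5 to 19.8) in the gated macrophages, where it is lowered by a gate that asks for C1QA, and 23.7 (21.2 to 26.3) in the macrophage-like cluster. In single classes the ratio to C1q went from 0 in pericyte-like and 4.76 in EC-like cells to 21.6 in T/NK-like cells, on 0 to 8 AIF1 UMIs each. In the yak the ratio to C1q was 147 (124 to 175) in the 9901 cells, 24.4 (22.3 to 26.7) in the gated macrophages and 36.0 (33.3 to 38.8) in the macrophage-like cluster.

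**Figure D4:**
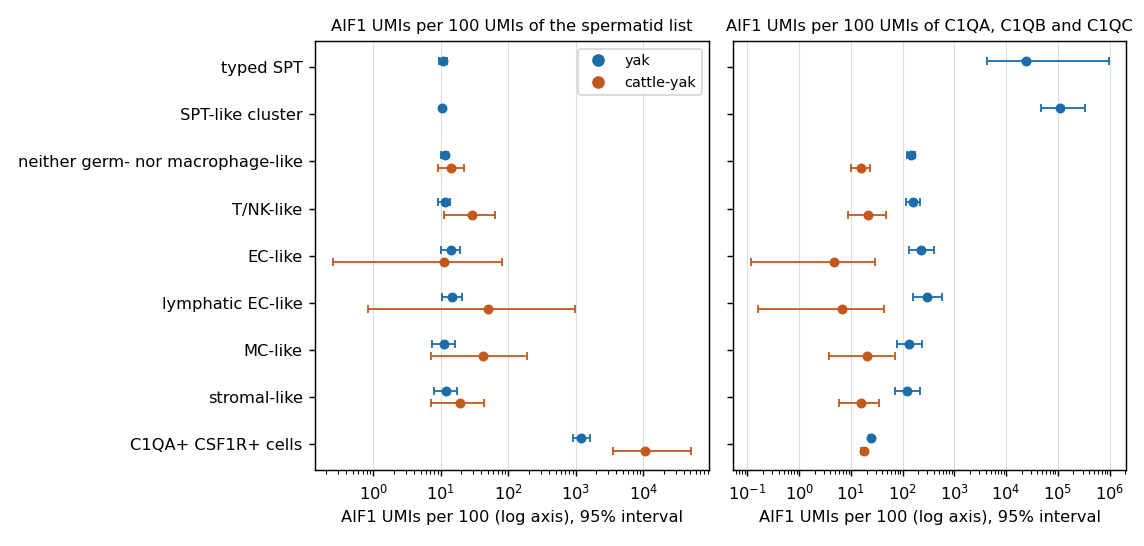
AIF1 UMIs for every 100 UMIs of the spermatid list (left) and of C1QA, C1QB and C1QC together (right), by cell group, on log axes with 95% intervals, for the yak (blue) and the cattle-yak (orange). On the left, yak cells of neither kind lie at 11.4 beside 10.8 in typed SPT, and gated macrophages at 1202. On the right, cattle-yak classes spread around the 17.5 of the gated macrophages, from 4.76 in EC-like to 21.6 in T/NK-like cells, with wide intervals.

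The AIF1 level of the whole yak library differed with the depth of the cells, and that of the SPT-like cluster differed little. Over all yak cells AIF1 was at 97.1 CPM in cells of 500 to 1000 UMIs, between 44.3 and 66.8 CPM from 1000 to 16000 UMIs, at 114 CPM from 16000 to 32000 and at 338 CPM above 32000, where 41.3% of cells had a UMI. In the SPT-like cluster it stayed between 1049 and 1792 CPM in all 7 depth ranges. In cells of neither germ nor macrophage kind it went from 30.3 CPM (18.5 to 46.9) in the shallowest to 4.05 CPM (1.85 to 7.70) in the deepest. In the cattle-yak, all cells above 16000 UMIs together held 3 AIF1 UMIs, and the levels were 0.249 CPM from 16000 to 32000 and 0.370 CPM above.

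**Figure D5:**
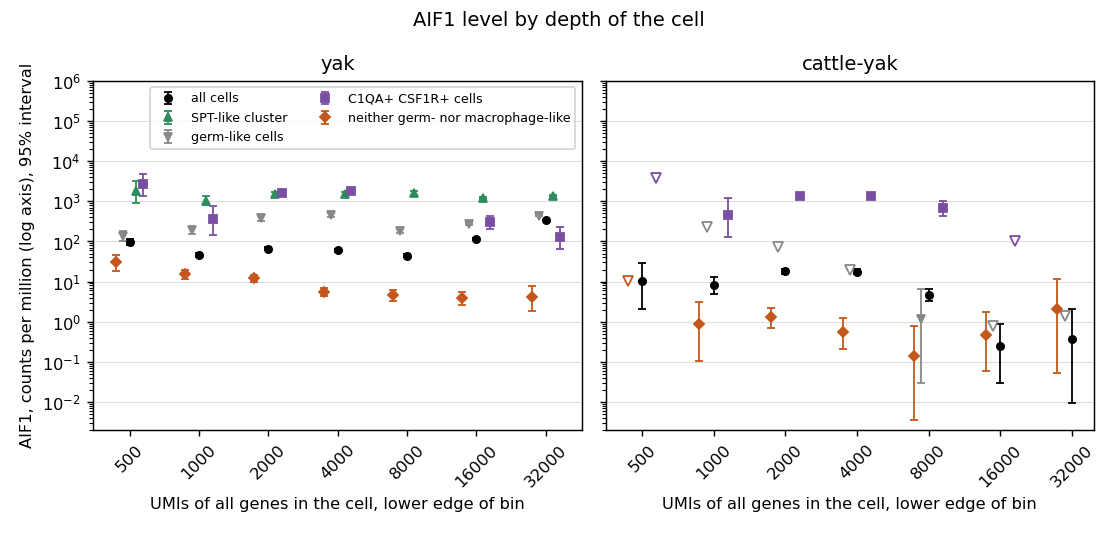
AIF1 level in CPM (log axis, 95% Poisson intervals) by total UMIs of the cell, in 7 ranges named by their lower edge, for each library, with open triangles for the limit that 3 counts give where no UMI was counted. In the yak the SPT-like cluster stays between 1049 and 1792 CPM at all depths, and all cells together reach 338 CPM only above 32000 UMIs, where the cattle-yak has 0.370 CPM.

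AIF1 was nearly absent from the germ-like cells of the cattle-yak. These 333 cells, with a median of 21288 UMIs, held 1 AIF1 UMI, at 0.141 CPM (0.00356 to 0.783), against 340.0 CPM (331 to 349) in the 1844 germ-like cells of the yak. The ratio of cattle-yak to yak was -11.24 on the log2 scale with nothing added (-16.54 to -8.76), and it rests on that 1 UMI. The 246 deep cells among them held 0, which allows up to 0.463 CPM. All 3 germ-like clusters of the cattle-yak were led by the SPC list, and none by the SPT list. The largest, with 267 cells, held 0 AIF1 UMIs, which allows up to 0.472 CPM. Although led by the SPC list, it shared leading genes such as DMRT1, RADX and ELAVL2 with a yak cluster of 258 cells led by SPG markers. Its stage was not tested. That yak cluster held 14 AIF1 UMIs, at 2.94 CPM (1.61 to 4.93). Without the SPT-like cluster, the germ-like cells of the yak still held 294 AIF1 UMIs, at 22.9 CPM. The ratio of the 2 libraries in germ-like cells is therefore one of different mixtures of stages, which cannot be told apart here from a difference at the same stage.

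Genes of the actin cytoskeleton and of phagocytosis, processes in which AIF1 takes part in macrophages, were near all genes in the SPT comparison. Of 27 such genes, 23 were in the annotation. In SPT against the other types 14 had enough counts, none reached a log2 ratio of 2 (8.44% of all genes did, a share that 14 genes cannot be told from), and their median was -0.48 beside -0.42 for all genes. In the yak macrophages all 23 had enough counts, and 5 reached 2, beside 2.30% of all genes. Among them were WAS (2.00), which activates actin branching, the kinase FGR (2.11), the exchange factor VAV1 (2.64) and the platelet and leukocyte substrate PLEK (5.28). In the cattle-yak macrophages 7 of 22 did, beside 3.25% of all genes, with PLEK at 6.58 and VAV1 at 4.18. The medians were 0.64 and 0.86, beside -0.56 and -0.38 for all genes.

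Actin-related and sperm head genes of the germline were high in the same SPT comparison. Of 16 genes 12 were in the annotation and 10 had enough counts, and 8 of these reached a log2 ratio of 2, beside 8.44% of all genes, with a median of 4.58 beside -0.42. Among them were the profilin PFN3 (6.01), the actin capping subunit CAPZA3 (5.70), the actin-related ACTRT2 (5.53) and ACTL9 (5.41), and the calyx protein CYLC1 (4.76). PFN4, at 1.81, and CALM3, at 0.23, did not reach 2. The authors name ACTL7B and CAPZA3 among their spermatid markers, so the high level of these genes in typed SPT was in part set by the typing. Both genes and ACTL7A are also in the spermatid list used here. In the yak macrophages none of 12 reached 2, beside 2.30% of all genes, and 11 were at -2 or below, beside 14.4%. The cells they were compared with include the SPT-like cluster, so these low ratios were in part set by the comparison.

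Macrophage markers outside the gate were high in the gated cells and too sparse in germ cells to be compared. None of the 10 in the annotation had 50 UMIs in the typed germ cells. In the yak macrophages 6 of 7 with enough counts reached 2, beside 2.30% of all genes, with C1QC at 8.45 and the scavenger receptors MSR1 at 6.50 and CD163 at 5.86, and CD14 was at -0.91. In the cattle-yak 7 of 7 reached 2, beside 3.25% of all genes, with CD14 at 4.79.

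Few neighbours of AIF1 on the chromosome reached the same fold, as was so for all genes. In the RefSeq annotation of the yak assembly Bosgru_T2T1.0, which is not the build of the counts, AIF1 lies in the class III region of the major histocompatibility complex among APOM, BAG6, PRRC2A, NCR3, LST1, LTB, TNF and LTA. Of 16 genes of this region 13 were in the annotation used for counting. In SPT, 5 had enough counts and none reached a log2 ratio of 2, beside 8.44% of all genes. In the macrophages 1 of 11 reached 2 in each library, beside 2.30% of all genes in the yak and 3.25% in the cattle-yak. This was the cytokine TNF, at 2.73 and 3.16. In the cattle-yak, 1 of 11 was at -2 or below, beside 12.6% of all genes, which was NCR3 with 0 UMIs in the gated cells.

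NCR3, a receptor of natural killer cells, spans AIF1 in that annotation. Any effect of this overlap on the counts was not tested. NCR3 was at 266 CPM in the T/NK-like cells of the yak and 172 CPM in those of the cattle-yak, where AIF1 was at 13.1 and 2.61 CPM. In the macrophages it had 6 UMIs in the yak, at 11.0 CPM, and 0 in the cattle-yak, and in typed SPT it had 5. The paralogue AIF1L had 0 UMIs in typed SPT, 1 in the yak macrophages and 0 in those of the cattle-yak.

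The genes most like AIF1 over the yak groups were sought among 10012 genes with a symbol and at least 100 UMIs, by Pearson correlation of log2(CPM + 1) over 16 groups of cells of the same library. They were the histone gene H2BC5 (0.911), NABP1 (0.906), which encodes a single-stranded DNA-binding protein, GPR137B (0.894), a lysosomal membrane protein, and the myeloid lectin receptors CLEC4E (0.891) and CLEC12A (0.886). H2BC5 was at 202 CPM in SPT and 31.2 CPM in the macrophages, CLEC4E at 25.8 and 18.4 CPM, and CLEC12A at 11.0 and 97.4 CPM. A count of 3 gives 11.0 CPM in typed SPT and 5.51 CPM in the gated macrophages. CLEC12A in SPT was thus at that limit, and CLEC4E rests on few UMIs in both groups. The 16 groups share a library and differ in depth, so these values only describe this library.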

How the data were processed

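The 10x Genomics droplet method gave 1 library from a yak testis and 1 from a cattle-yak testis. The authors deposited raw counts, whole numbers of UMIs for each gene in each cell, with no normalization. The file headers name Cell Ranger 5.0.0, the labels 2.1.1. The study states BosGru3.0 as the genome for the yak.

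AIF1 and the lists were chosen with earlier results of these data known. Germ types are those the authors published per barcode. All deposited cells were clustered per library with scanpy 1.11.5 and igraph 0.11.9 (10000 counts per cell, 2000 variable genes, 30 components, 15 neighbours, Leiden resolution 1, seed 0). A class needed 3 markers with a log2 ratio of at least 1 and a UMI in 10% of cells. Once the clusters had been seen, the SPG, SPC and SPT lists were treated as a single germ-like list. No doublets were removed. Scrublet called 0 yak cells and 251 cattle-yak cells, and its calls were not used.

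Levels are summed counts per 1000000 UMIs (CPM) with exact Poisson intervals, shares have Clopper-Pearson intervals, and ratios have exact conditional intervals. Log2 ratios across genes add 1 CPM and use genes with at least 50 UMIs. Shares were also taken after thinning to 1000 UMIs. Named genes are AIF1, the gate and list genes, and the 5 most correlated with AIF1. With 1 library per group no test was made. PCR duplicates were collapsed by UMI, and intervals cover counting error only. Calculations used Python 3.11.15, numpy 2.4.6, scipy 1.17.1 and pandas 2.3.3. The value of 1 list gene is not reported here.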

Additional observations from a re-analysis of the deposited data

How the results depend on the processing

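No paired analysis was possible because each group is 1 library. Of 70 alternatives, 31 stayed within the 95% interval of the value reported (counts of genes within 1.5 times). The cause of the other shifts was not tested. Alternatives that pick SPT or macrophages by cluster, drop late-SPC or drop germ-like cells were added after seeing the data.

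SPT over other types (log2 4.81) was 5.57 with SPT of cluster 14 only and 6.28 without late-SPC. The 443 genes past log2 2 became 821 at log2 1, 260 at log2 3, 754 with at least 20 UMIs and 1934 with no filter. The thinned SPT share (46.9%) was 27.7% at 500 UMIs.

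The yak macrophage ratio (3.43) was 4.65 with cells weighted equally, 1.87 with either gate gene, 3.79 with 2 UMIs of both, 5.27 within the depth and mitochondrial limits and 6.20 without germ-like cells. In the cattle-yak (7.97) it was 7.68 with equal weights, 6.74 with either gene and 8.74 with the cluster. Shares of macrophages with AIF1 were 82.9% and 80% unthinned and 40.5% and 36.9% at 500 UMIs.

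SPT over macrophages (-0.37) turned to 1.29 with either gate gene and to 0.39 with SPT of cluster 14. It was -1.03 with equal weights, -0.74 with 2 UMIs of both, -0.91 within the limits and -0.91 with gated cells of the macrophage-like cluster. The ratio of their thinned shares (0.754) was 0.512 unthinned.

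Deep germ cells of the yak (355 CPM) had 387 without mitochondrial and rRNA features, 314 with equal weights, 374 with limits on log10 values, 413 at resolution 2 and 374 without the highest Scrublet scores.

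Cattle-yak over yak in macrophages (-0.05) turned to 0.17 without mitochondrial and rRNA features, and was -0.31 with clusters and -0.32 within the limits. In germ-like cells the ratio was -8.22 with 1 CPM added on each side, against -11.24 with nothing added. With 1 CPM added it was -4.39 without the SPT-like cluster and -3.40 without cluster 13 too. With nothing added it was -7.35 (-12.66 to -4.86) without the SPT-like cluster, which rests on 1 cattle-yak UMI. In all cells (-3.32, with 1 CPM added) it was -3.07 without mitochondrial and rRNA features, -2.23 with equal weights and -1.73 within the limits.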

Other observations

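Other genes with a split between germ cells and macrophages were seen while AIF1 was examined, and both below were chosen after their values were seen. HORMAD1, known for its part in meiotic chromosome pairing, was higher in the macrophages than in germ-like cells in both libraries. It had 477 UMIs in the 111 gated yak cells, at 876 CPM (95% interval 799 to 959), and 1079 in the 1844 germ-like cells, at 64.3 CPM (60.5 to 68.2). In the cattle-yak it had 280 UMIs in the 65 gated cells, at 994 CPM (881 to 1118), and 412 in the 333 germ-like cells, at 57.9 CPM (52.4 to 63.8). Germ-like cells mix stages, and in the typed early-SPC of the yak HORMAD1 was at 232 CPM (179 to 295), on 66 UMIs. T/NK-like cells had 37.8 CPM in the yak and 31.6 CPM in the cattle-yak. Whether all UMIs counted for HORMAD1 come from that gene was not tested.

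CD14, a lipopolysaccharide co-receptor used as a monocyte and macrophage marker, went the other way in the yak. It had 808 UMIs in germ-like cells, at 48.1 CPM (44.9 to 51.5), of which 743 were in the 414 deep cells, and 4 in the gated macrophages, at 7.35 CPM (2.00 to 18.8). In the cattle-yak it had 14 in the gated macrophages, at 49.7 CPM (27.2 to 83.4), and 0 in germ-like cells, which allows up to 0.422 CPM. In the typed yak cells CD14 had 0 UMIs in SPG and early-SPC, 1 in SSC, 24 in late-SPC and 4 in SPT. Germ-like cells are different mixtures of stages in the yak and the cattle-yak, so their CD14 levels are not compared at the same stage.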
